A study of Mus musculus with 24 samples.

Results

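BMS961, an agonist of the retinoic acid receptor RARγ, was given to P19 cells of 2 genotypes, and the genes that each line listed at day 10 are compared here. A gene was a member when it stood in the deposited table of Rarb-/- cells (rarbKO in the labels) with BMS961 or in that of wild-type (WT) cells with BMS961. The rule found 397 genes, of 1753 genes in any of the 23 tables of the series. P19 is a mouse embryonal carcinoma line that can be driven towards neural and other fates in culture. Both lines received 0.1 μM BMS961 for 4 d and then spent 6 d in Neurobasal medium with N2 and B27 without vitamin A. Each table sets 1 poly-A-selected RNA library against the same day 2 library, which came from WT cells in ethanol (EtOH, the vehicle). Values are log2 fold changes over that day 2 library, not levels. WT cells with ethanol at day 10 had passed through the same media and served as the background. Other day 10 tables are set beside these. They come from Rara-/- cells (raraKO in the labels) with BMS961, and from Rarb-/- and WT cells with other ligands. The ligands were 0.1 μM BMS641 (a RARβ agonist) with 0.1 μM BMS961, 1 μM BMS753 (a RARα agonist), or 1 μM all-trans retinoic acid (ATRA), which binds RARα, RARβ and RARγ.

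The Rarb-/- line was made with CRISPR/Cas9 and a puromycin resistance cassette inserted by homologous recombination. The sources used here do not say whether it was 1 clone. A Rarb-/- library with ethanol was not analysed here, so the effect of the line and the effect of BMS961 in it cannot be told apart. With 1 library a condition, no difference between the lines has a replicate check and no test was made. The depth of the libraries is unknown, because read counts were not used here.

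Retinoic acid receptors are nuclear receptors that bind DNA as pairs with a retinoid X receptor, most often at direct repeats of a short half-site. They hold genes down without ligand and raise them with it. RARα, RARβ and RARγ are the products of Rara, Rarb and Rarg, and Rarb is itself a classical retinoid target. In the mm9 build Rarb lies on the minus strand at chr14:17263356-17651381, Rara at chr11:98789132-98836256 and Rarg at chr15:102065369-102087948. All 3 are in 0 of the 23 tables, so the loss of Rarb could not be checked from these values. Pou5f1, Sox2, Tubb3 and Map2, which mark pluripotent cells and neurons, were listed in neither BMS961 table.

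Genes of neural progenitors and of signalling pathways are described first. WT cells with BMS961 listed the neural progenitor genes Hes5, Fabp7, Sox21, Pax3, Fezf2 and Pax6 and the ligand genes Wnt7b, Wnt1, Wnt2b, Wnt6, Bmp2 and Fgf18 as higher than at day 2, and Rarb-/- cells with BMS961 listed none of them. Of these 12, Fabp7, Sox21, Wnt7b, Wnt6, Bmp2 and Fgf18 were also listed as higher in WT cells with ethanol. Rarb-/- cells listed Pdgfra as higher, and Lhx9, Ebf2, Nodal, Lefty1 and Lefty2 as lower, where the WT table had no entry. A gene that is not listed had no value in the table, which does not show that it was unresponsive.

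The Rarb-/- table held 245 genes, 123 of them higher and 122 lower than at day 2. The WT table held 274 genes, 143 higher and 131 lower. As shares of the 1753 genes, these were 7.02% higher and 6.96% lower in Rarb-/- cells and 8.16% higher and 7.47% lower in WT cells. The ethanol table at day 10 had 167 genes higher (9.53%) and 134 lower (7.64%). The deposited tables stop at an unadjusted p-value of 0.01, and every listed value passed the 4-fold threshold (absolute log2 over 2). The smallest absolute log2 value was 2.80 in the Rarb-/- table and 2.87 in the WT table.

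Between the 2 lines, 123 genes were gained (listed in Rarb-/- cells only), 152 were lost (listed in WT cells only) and 122 were kept (listed in both). Gained genes comprised 67 higher and 56 lower than at day 2. Lost genes comprised 87 higher and 65 lower, and kept genes 56 higher and 66 lower. Kept genes made up 49.8% of the Rarb-/- table and 44.5% of the WT table. Among genes listed as higher, the kept share was 45.5% of the Rarb-/- table and 39.2% of the WT table, and among those listed as lower it was 54.1% and 50.4%. No kept gene had opposite signs in the 2 lines.

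**Figure D1:**
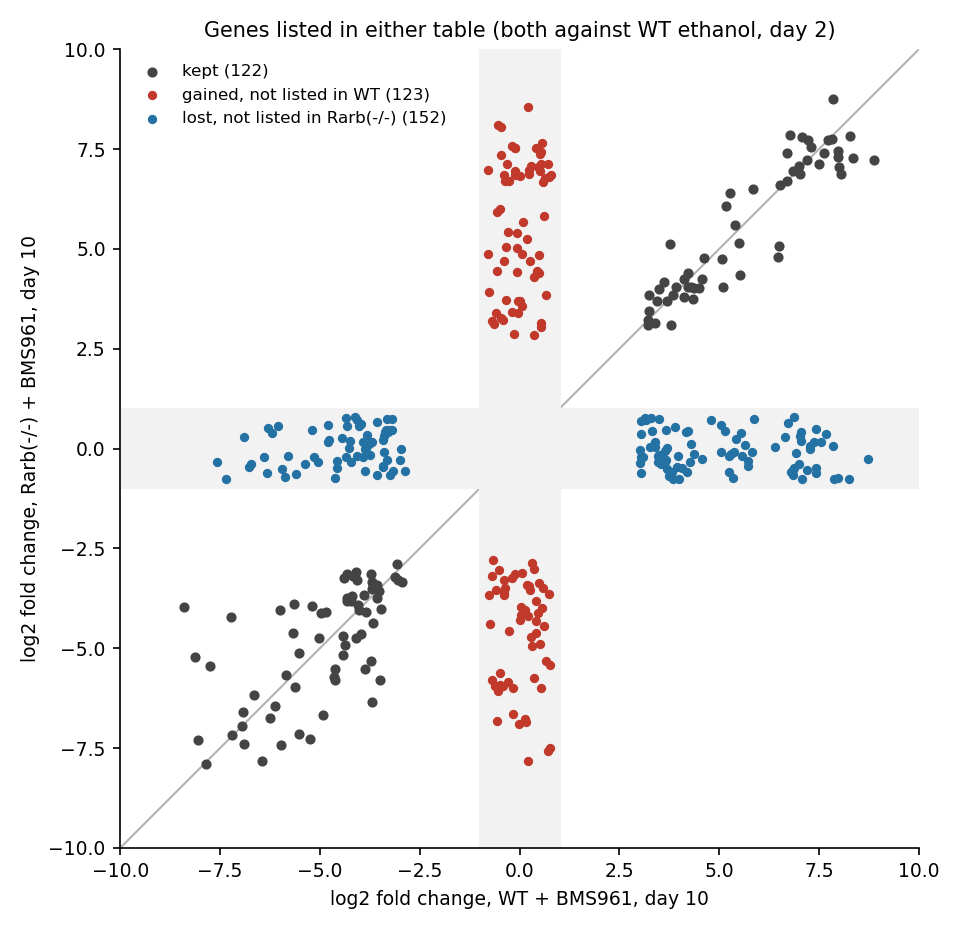
Log2 fold change of each member over WT ethanol at day 2, with WT cells with BMS961 on the x axis and Rarb-/- cells with BMS961 on the y axis. The 122 kept genes (dark) fall in the quadrants of equal sign around the line of equality, and the 123 gained (red) and 152 lost genes (blue) have no value on the other axis and are spread at random within the grey bands for legibility.

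The lost genes that were higher in WT cells were led by Wnt7b at 8.73, Gprc5a at 8.24, Sp8 at 7.97, Inhbb at 7.87, Otx1 at 7.85 and Dmrt3 at 7.68 on the log2 scale. Wnt7b encodes a secreted Wnt ligand, Inhbb an inhibin and activin subunit, and Sp8, Otx1 and Dmrt3 transcription factors of the developing forebrain. Over all 87, the log2 value in WT cells had a median of 5.05 and ran from 3.02 to 8.73, with 27 of them over 6.6. Some high values were shared by unrelated genes. Otx1 had the same value in WT cells as the kept gene Gsto2, and Cubn and Dnah10 shared 7.41. Such values may come from few or no reads in the day 2 library, which was not tested for want of counts. The ranks of these high values are therefore not exact.

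Of the neural progenitor list, 25 genes stood in any table. WT cells with BMS961 listed 7 of them (28.0%) as higher and 0 as lower. Rarb-/- cells with BMS961 listed 1 (4.00%) higher and 1 lower, and WT cells with ethanol 5 (20%) higher and 0 lower. Over all genes the higher shares were 8.16%, 7.02% and 9.53%. Hes5, a Notch effector, stood at 7.42 in WT cells with BMS961 and was listed neither in Rarb-/- cells nor with ethanol. It was listed at 8.67 in Rara-/- cells with BMS961, at 8.94 in WT cells with BMS641 and BMS961, and at 11.96 in Rarb-/- cells with BMS753, so the Rarb-/- line did list the gene with the RARα agonist. Fabp7, a lipid-binding protein of radial glia, stood at 5.73 in WT cells with BMS961 and at 4.27 with ethanol. Pax3, a dorsal neural tube and neural crest factor, stood at 5.34 in WT cells with BMS961, at 7.61 in Rara-/- cells with BMS961 and at 5.65 in Rarb-/- cells with BMS641 and BMS961. Sox21 stood at 5.53, Fezf2 at 4.06 and Pax6 at 3.70 in WT cells with BMS961. These are transcription factors of neural progenitors, and with ethanol Sox21 alone of the 3 was listed, at 5.74. Irx3, a homeobox factor of the neural tube, was the 1 progenitor gene listed as higher in both lines, at 4.03 in Rarb-/- cells and 4.51 in WT cells.

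Signalling genes formed the longest of these groups. WT cells with BMS961 listed 11 of the 46 signalling ligands, receptors and inhibitors in any table as higher (23.9%) and 2 as lower. WT cells with ethanol listed also 11 (23.9%) and 2, and Rarb-/- cells with BMS961 3 (6.52%) and 2. Over all genes the higher shares were 8.16%, 9.53% and 7.02%. Of the Wnt ligands, Wnt7b, Wnt1 (4.56), Wnt2b (4.20) and Wnt6 (3.97) were lost, while Wnt10b was kept at 7.21 in Rarb-/- cells and 8.87 in WT cells. Wnt1 was not listed with ethanol. It was listed at 6.30 in Rara-/- cells with BMS961 and at 6.78 in the separate library of Rarb-/- cells with BMS641 and BMS961. Wnt7b was listed with ethanol at 8.37 and with the combination in WT cells at 8.84, and in none of the 4 Rarb-/- tables at day 10. Of the BMP pathway, Bmp2 (7.01) and the BMP antagonist Nog (3.76) were lost, while Bmp4 was kept at 6.61 in Rarb-/- cells and 6.52 in WT cells. Fgf18 (6.87) and Inhbb were the other lost ligands. Igfbp5, which binds insulin-like growth factors, was kept at 4.34 in Rarb-/- cells and 5.51 in WT cells. Fgf15, at -7.28 and -5.26, and the receptor gene Fgfr4, at -5.78 and -3.49, were kept as lower in Rarb-/- and WT cells.

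**Figure D2:**
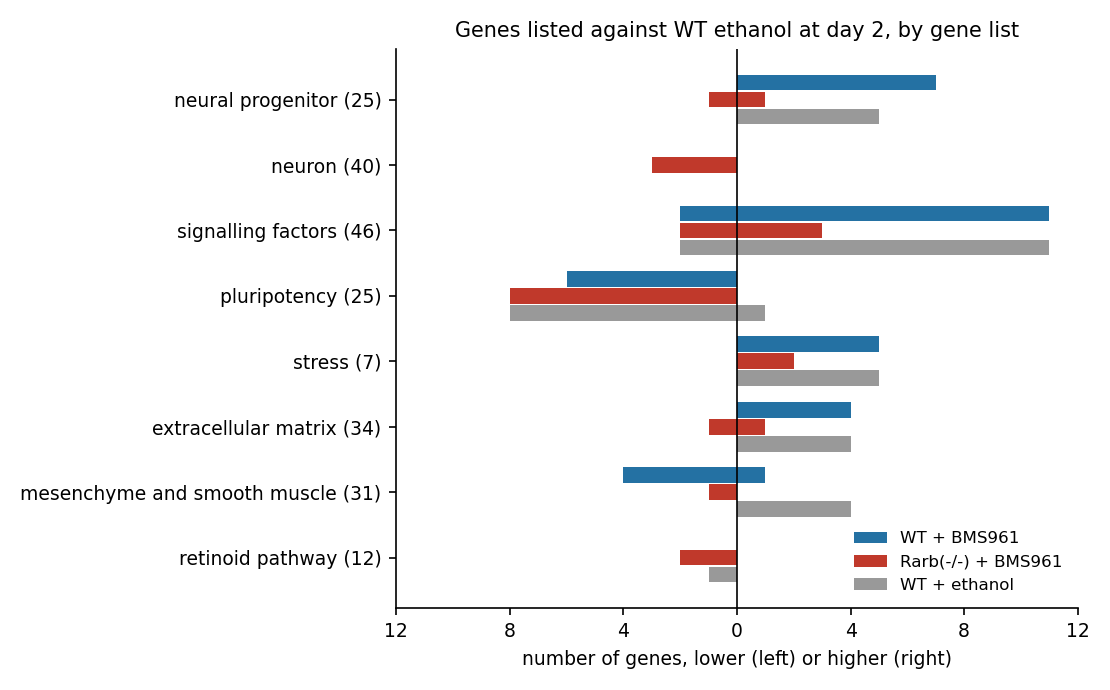
Number of genes listed as higher (to the right of 0) or lower (to the left) than in WT ethanol at day 2, for 8 gene lists, in WT cells with BMS961 (blue), Rarb-/- cells with BMS961 (red) and WT cells with ethanol at day 10 (grey). The number after each list name is its genes in any table, and the widest gap is in signalling factors, with 11 genes higher in WT cells and 3 in Rarb-/- cells.

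Several lists of other tissues and states also had fewer genes listed as higher in Rarb-/- cells. Of 7 stress and growth arrest genes in any table, 5 (71.4%) were higher in WT cells with BMS961, 5 (71.4%) with ethanol and 2 (28.6%) in Rarb-/- cells. Over all genes the higher shares were 8.16%, 9.53% and 7.02%. Gadd45g (5.58), the early response gene Egr1 (3.90), the cell cycle inhibitor Cdkn1a (3.81) and the metallothionein Mt2 (3.40) were lost, the early response gene Fos was gained at 4.86, and Gadd45b was kept at 4.80 in Rarb-/- cells and 6.48 in WT cells. Of 34 extracellular matrix genes, WT cells listed 4 (11.8%) as higher with BMS961 and also 4 (11.8%) with ethanol. Rarb-/- cells listed 1 (2.94%) as higher and 1 as lower. Col12a1 (6.39), Tnc (3.66) and Thbs1 (3.63) were lost, Col11a1 was kept at 4.25 in Rarb-/- cells and 4.12 in WT cells, and Mfap4 was gained as lower at -4.46. With ethanol, Col12a1, Tnc and Thbs1 were also listed as higher, at 6.55, 4.05 and 3.81.

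The epithelial list (16 genes in any table) had Tfap2b (5.28) and Krt8 (3.02) lost as higher and Cldn3 (-3.35) lost as lower, with no member in the Rarb-/- table. The mesenchyme and smooth muscle list (31 genes) had 1 lost as higher, Tagln at 3.84, and 3 lost as lower, H19 at -6.73, Barx1 at -4.80 and Tbx1 at -3.57, and Thy1 was kept at -4.05 in Rarb-/- cells and -4.01 in WT cells. The endoderm list (8 genes) had Cubn lost at 7.41. The cardiac and skeletal muscle list (7 genes) had Nppb lost at 5.86, the troponin gene Tnnc1 gained at 7.54 and Acta1 kept at 3.15 in Rarb-/- cells and 3.38 in WT cells. Tek, a receptor of endothelium, was the gained gene of the endothelium and blood list (4 genes), at -3.61. The glia list (7 genes) had Fabp7 and Sox9 (5.43) lost, Pdgfra gained at 7.37 and Aldh1l1 kept at -7.29 in Rarb-/- cells and -8.06 in WT cells. Tfap2b, Krt8, Tagln, Cubn, Nppb, Fabp7 and Sox9, all lost as higher, were each listed as higher with ethanol too. In WT and Rarb-/- cells with BMS961, 12.5% and 0% of epithelial genes and 3.23% and 0% of mesenchyme genes were higher. For endoderm these shares were 12.5% and 0%, for muscle 28.6% and 28.6%, for glia 28.6% and 14.3%, and for all genes 8.16% and 7.02%. Markers of these other cell types were few in either table, and their part in the contrast between the lines was not tested.

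Pluripotency genes were listed as lower in both lines. Of 25 in any table, 8 (32%) were lower in Rarb-/- cells, 6 (24%) in WT cells with BMS961 and 8 (32%) with ethanol. Over all genes the lower shares were 6.96%, 7.47% and 7.64%. Tdgf1, a Nodal co-receptor, was kept at -4.91 in Rarb-/- cells and -4.37 in WT cells, Nr0b1 at -3.68 and -4.20, Nanog at -3.57 and -3.51, and Foxd3 at -3.24 and -4.40. Each of these 4 differences was smaller than its combined error, which was at least 1.78, taken from the standard errors that the log2 and p-values imply. That error is too wide, because both values share the day 2 library, so agreement between the lines was not tested. Nodal (-3.53) and its feedback inhibitors Lefty1 (-4.71) and Lefty2 (-5.32) were gained as lower, and Gdf3 (-4.34), a ligand of the same family, was lost. Zscan10 (-3.01) was gained and Fgf4 (-3.28) lost. With ethanol, Lefty1 was listed at -3.05 and Lefty2 at -7.64, while Nodal was not listed.

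The retinoid list held 12 genes in any table. WT cells with BMS961 listed 0 of them, and Rarb-/- cells listed 2 (16.7%) as lower, beside 6.96% of all genes. These were Stra6 at -5.63, the cell surface receptor for retinol-binding protein, and Rxrg at -4.19, a retinoid X receptor. Rxrg was lower with ethanol too, at -8.39. The targets Cyp26a1, Dhrs3 and Rarb, among others of the list, were listed in neither table. Of 23 Hox genes in any table, each line listed 1 as lower, Hoxb13 at -7.83 in Rarb-/- cells and Hoxc13 at -4.77 in WT cells. Of 40 genes in the short neuron list, 0 were listed in WT cells with BMS961 or with ethanol. Rarb-/- cells listed 3 (7.5%) as lower, near the 6.96% of all genes. They were the transcription factors Ebf2 (-6.86) and Lhx9 (-4.91) and the adhesion molecule Cntn2 (-3.43).

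The study also collected 6 marker lists from published datasets. Of the 330 neuron markers in any table, 24 (7.27%) were higher in WT cells with BMS961, 14 (4.24%) in Rarb-/- cells and 18 with ethanol, beside 8.16% and 7.02% of all genes in the BMS961 tables. Without genes listed with ethanol, both lines had 11. The lost ones were led by Wnt7b, Sp8, Dmrt3 and Srrm4 (7.19), a neural splicing regulator, and the gained ones by Gm11837 (7.65), Pdgfra (7.37), Rspo4 (6.84) and Cplx3 (5.25). The kept ones included Adcy8, at 6.95 in Rarb-/- cells and 6.86 in WT cells, H2-M5, at 6.88 and 7.03, and Nr2f2, at 4.76 and 5.06. Several of these are progenitor or signalling genes rather than markers of mature neurons. Of 98 astrocyte markers, 14 (14.3%) were higher in WT cells, 7 (7.14%) in Rarb-/- cells and 11 with ethanol, the lost led by Otx1, Hes5, Sp5 (7.38) and Fabp7 and the gained by Aox1 (7.05), and without genes listed with ethanol both lines had 6. GABAergic markers (78) had 8 (10.3%) higher in WT cells, 4 (5.13%) in Rarb-/- cells and 8 (10.3%) with ethanol. Glutamatergic markers (68) had 5 (7.35%), 3 (4.41%) and 5 (7.35%), and dopaminergic markers (128) 10 (7.81%), 8 (6.25%) and 9 (7.03%). Over all genes the higher shares were 8.16%, 7.02% and 9.53%, and the dopaminergic shares with BMS961 lay near them. Without genes listed with ethanol, the dopaminergic counts turned to 2 in WT cells and 5 in Rarb-/- cells. Of 100 oligodendrocyte precursor (OPC) markers, 3 (3%) were higher in WT cells and 6 (6%) in Rarb-/- cells, both below the shares of all genes, and 8 were higher with ethanol. The gained OPC markers were Pcbd1 (7.42), Pdgfra (7.37), Fbln7 (7.08), Stk32a (4.88) and Unc80 (4.42), and the lost were Inhbb and Col12a1. Pdgfra encodes the growth factor receptor by which these precursors are usually recognised, and it is expressed in mesenchyme as well.

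**Figure D3:**
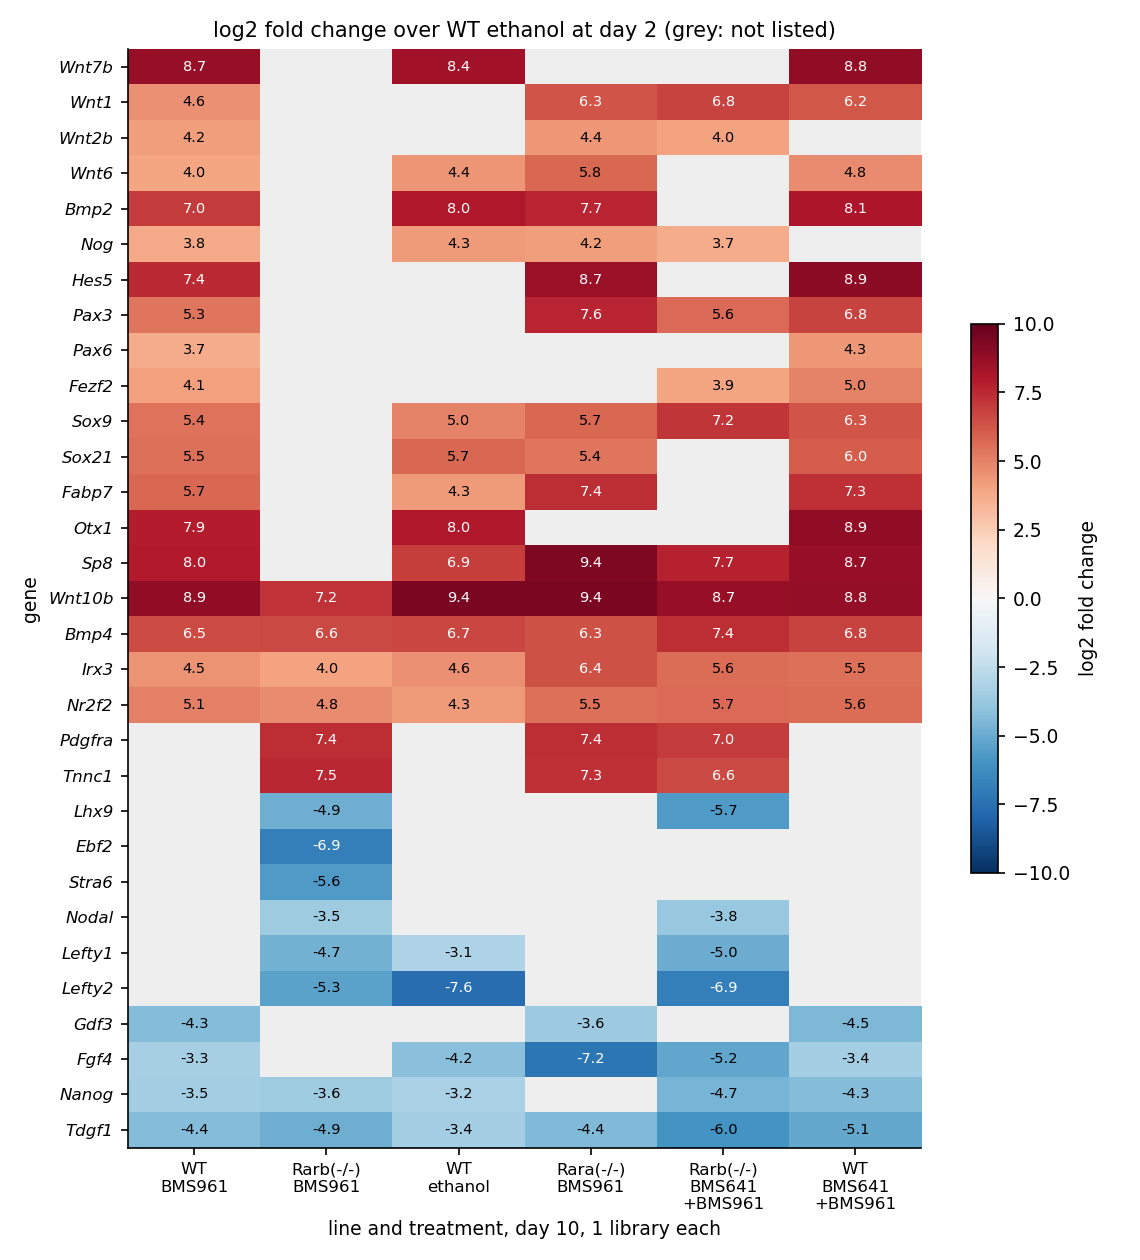
Log2 fold change over WT ethanol at day 2 (numbers and colour, red higher and blue lower) of 31 named genes in rows, in 6 conditions at day 10 in columns with 1 library each, where grey marks a gene that is not listed. From Wnt7b to Sp8 the WT column with BMS961 is filled and the Rarb-/- column with BMS961 is grey, and from Pdgfra to Lefty2 the reverse holds.

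WT cells with ethanol at day 10 listed more of the lost genes than of the gained ones. Of the 87 genes lost as higher, 62 (71.3%) were also listed as higher with ethanol, where 9.53% of all genes were. For these 62, the log2 value with BMS961 was above that with ethanol in 13 and below it in 49, with a median difference (BMS961 minus ethanol) of -0.43. Most genes that WT cells listed and Rarb-/- cells did not were thus listed in WT cells without any ligand. Of the 67 genes gained as higher, 4 (5.97%) were listed with ethanol, namely Bcap29, Exoc3l4, Gm15441 and Slc35g2. Of the genes listed as lower, 10 of 56 gained (17.9%) and 19 of 65 lost (29.2%) were also lower with ethanol, where 7.64% of all genes were. Kept genes were listed with ethanol in 36 of 56 cases among the higher and 45 of 66 among the lower. All these tables share the day 2 library, and no member listed in both had opposite signs.

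The 25 genes lost as higher that were not listed with ethanol included Dmrt3, Hes5, Pax3, Wnt1, Wnt2b, Fezf2 and Pax6. Of these 25, 14 were also not listed in Rarb-/- cells with BMS641 and BMS961, and among the 14 were Hes5, Pax6, the splicing regulator Srrm4, the transcription factors Rfx4 (3.66) and Zfp536 (4.36), and the receptor Erbb4 (3.30).

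The gained genes with the highest values were Slc50a1 (8.55), a sugar transporter, Pfn4 (8.11), BB218582 (8.06), Gm11837 (7.65), Sat2 (7.59) and Tnnc1 (7.54). Among the genes gained as higher, 30 stood over 6.6, and Rspo4, Tcf24 and Tgfbr3l shared the value 6.84. The ranks of such high values are not exact here either. The gained genes with the lowest values were Hoxb13 (-7.83), 3830403N18Rik (-7.58), C330024D21Rik (-7.50), Birc7 (-6.90), Ebf2 (-6.86) and Eprn (-6.82). The genes lost as lower were led by Mup6 (-7.58), Rprml (-7.35), Pdcd1 (-6.89), Tdh (-6.78), H19 (-6.73) and 1700063H04Rik (-6.41). Tdh encodes threonine dehydrogenase, an enzyme of pluripotent mouse cells, and H19 is an imprinted non-coding RNA. Mup6 belongs to a family of near-identical genes, and its value is uncertain where reads could be split among copies.

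Gained genes were next looked up in the other Rarb-/- tables. With BMS641 and BMS961 together, Rarb-/- cells listed 38 of the 67 genes gained as higher and 32 of the 56 gained as lower, in a table that held 8.27% of all genes as higher and 7.64% as lower. Where a gene gained as higher stood in both Rarb-/- tables, BMS961 minus the combination had a median of 0.14 and ran from -1.21 to 0.93. In all 4 Rarb-/- tables at day 10 (ATRA, BMS753, BMS961, and BMS641 with BMS961), 12 gained genes were listed. Among the 12 were 3830403N18Rik, C330024D21Rik, Clca4a, Ctsc, Cyp2b23, Eprn, Pdgfra, Pfn4, Slc39a8, Tgfbr3l and Tshz2, and of these 3830403N18Rik, C330024D21Rik and Ctsc were in none of the WT tables at day 10. Ctsc, a lysosomal protease, stood at -6.80 with ATRA, -6.99 with BMS753, -3.97 with BMS961 and -4.08 with the combination in Rarb-/- cells. C330024D21Rik had the value -7.50 in each of the 4, and also in Rara-/- cells with BMS961. These 3 genes were not particular to the Rarb-/- line. Of the 23 tables of the series, 3830403N18Rik stood in 8, C330024D21Rik in 11 and Ctsc in 7. Of all gained genes, 77 of 123 were in none of the 5 WT tables at day 10, 48 of them also in a further Rarb-/- table, and 19 were in no other table of the series. The WT table with BMS961 is 1 of those 5 and lacks gained genes by definition. The same shares over all genes were not worked out, so these counts are not read as particular to the gained genes.

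The lost genes were also looked up in the other lines and treatments, whose tables share the day 2 library, so the counts are set side by side without a test. Rara-/- cells with BMS961 listed 53 of the 87 genes lost as higher and 41 of the 65 lost as lower, in a table that held 10.9% of all genes as higher and 8.61% as lower. Rarb-/- cells with BMS641 and BMS961 listed 25 and 19. Of the gained genes, Rara-/- cells with BMS961 listed 6 of 67 higher and 15 of 56 lower. Of all 152 lost genes, 86 were listed in at least 1 other Rarb-/- table and 66 in none, and 6 were in no other table of the series (Flnc, H2-Eb2, LOC108167416, Pdlim4, Rac2 and Rpph1). For these counts too, the shares over all genes were not worked out.

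For the 122 kept genes, the Rarb-/- minus WT difference in log2 value had a median of -0.001 and an SD over genes of 1.02. It was positive for 61 and negative for 61, within 1 log2 unit for 91 and within 0.5 for 59. The range ran from -2.67 to 4.43. Genes listed as higher lay closer together, with an SD of 0.67 over 56 genes, than those listed as lower, with an SD of 1.24 over 66. The standard error of each log2 value can be worked back from the value and its p-value, and the combined error of a difference had a median of 2.14 and ran from 1.60 to 3.62. It serves only as a yardstick, since both values share the day 2 library. The noise of that library cancels in the difference but is counted in both errors, so the combined error is too wide. Beyond 1 combined error lay 4 genes, and 0 lay beyond 2, which does not show that the lines agree.

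Those 4 were all listed as lower than at day 2. Dusp26, a phosphatase gene, stood at -3.98 in Rarb-/- cells and -8.41 in WT cells. In WT cells it had the same value, -8.91, with ethanol and with BMS641 and BMS961. Zfp36l3 stood at -4.21 in Rarb-/- cells and -7.24 in WT cells. Svopl, at -6.36 in Rarb-/- cells and -3.68 in WT cells, and Fgfr4, at -5.78 and -3.49, went the other way. The others among the 8 largest differences were those of Ptf1a (-5.21 in Rarb-/- and -8.12 in WT cells), Tspan10 (-5.44 and -7.76), Fgf15 (-7.28 and -5.26) and Rlbp1 (-4.06 and -6.00). In log2 units Ptf1a differed more than Svopl and Fgfr4, and Tspan10 more than Fgfr4, but with wider combined errors. Ptf1a encodes a factor of pancreas and inhibitory neuron development, and its value was -5.83 with ethanol, near that of Rarb-/- cells, and -8.12 also in Rara-/- cells with BMS961 and in both lines with BMS641 and BMS961. Values that recur within 0.001 log2 units in another table were found for 8 genes listed as lower in Rarb-/- cells, among them Hoxb13, C330024D21Rik, Birc7 and Rasd1, and for 5 in WT cells, among them Ptf1a, H19, Pdcd1 and Rprml. Such a value may be a bound set by a library without reads, which was not tested for want of counts. The difference of Ptf1a and the rank of these genes are therefore not exact. The same holds for the difference of Dusp26, the largest of the kept genes, whose WT value lies near its recurring -8.91. Among kept genes listed as higher, the widest gaps were those of Gadd45b and Wnt10b, both lower in Rarb-/- cells.

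The highest WT values among kept genes were those of Wnt10b (8.87, with 7.21 in Rarb-/- cells), A930015D03Rik (8.35 and 7.28), E230016M11Rik (8.26 and 7.83), Mxd4 (8.05 and 6.86) and Rskr (8.01 and 7.05). Gsto2, a glutathione transferase, had the highest value of the Rarb-/- table, 8.76, with 7.85 in WT cells. At the low end, Trh, the gene of thyrotropin-releasing hormone, stood at -7.91 in Rarb-/- cells and -7.85 in WT cells, beside Dusp26, Ptf1a, Aldh1l1 and Tspan10.

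**Figure D4:**
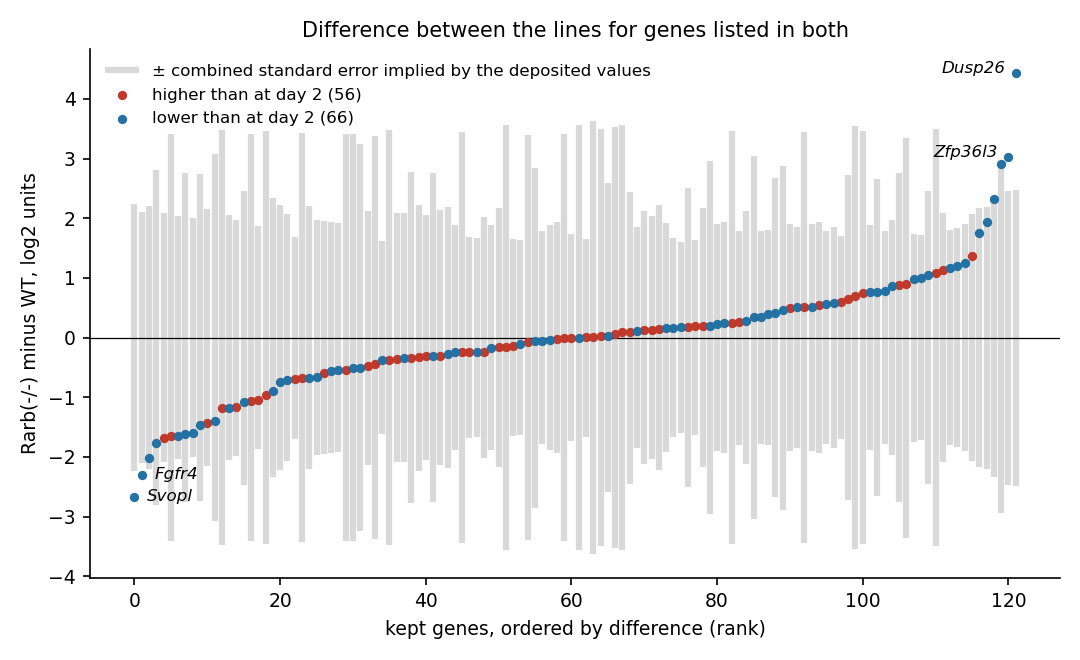
Rarb-/- minus WT difference in log2 fold change (y axis, log2 units) of the 122 kept genes in rank order (x axis), in red for genes higher and blue for genes lower than at day 2. Grey bars span plus and minus 1 combined standard error implied by the deposited values, and only Dusp26, Zfp36l3, Svopl and Fgfr4 lie beyond them.

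How far a gained or lost gene stood from the limit of listing bears on how its absence from the other table can be read. The distance by which an absolute log2 value exceeded the smallest value that would have been listed with the same error had a median of 0.43 for gained and 0.31 for lost genes, below the median absolute difference of 0.50 between the lines for kept genes. Most gained and lost genes were therefore closer to the limit than kept genes typically differed between the lines. It exceeded 1.65, the 90th percentile of the absolute difference of kept genes, for 8 gained and 9 lost genes. The 9 lost were Mup6, Wnt7b, Tdh, Gprc5a, Sp8, Inhbb, Otx1, 2510009E07Rik and Fabp7, and the 8 gained included 3830403N18Rik, Slc50a1, Cyp2b23, Pfn4, BB218582, Cdk3 and Eprn. Fabp7 passed only narrowly, at 1.649 against 1.648. Several others, such as Otx1, Sp8 and Slc50a1, are among the high values whose ranks are not exact. Kept genes had to be listed in both lines, which limits how far they can differ. The yardstick therefore does not show that the absence of any gene is real. Near the limit stood Rasd1 (-6.66), Baiap2l2 (-4.62) and Kyat3 (-3.43) in Rarb-/- cells and Fam155a (3.48) and Camkv (-2.96) in WT cells.

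Most members of each class coded for proteins. By RefSeq, 108 of 123 gained genes (87.8%) were protein coding, against 144 of the 151 lost genes with a type (95.4%) and 114 of 122 kept genes (93.4%). Of the genes named above, in the mm9 build Wnt7b lies at chr15:85365869-85412251, Hes5 at chr4:154335032-154336480, Pax6 at chr2:105509053-105543317, Pdgfra at chr5:75548316-75594229 and Dusp26 at chr8:32199943-32207519. Wnt1 (chr15:98620288-98624268, plus strand) and Wnt10b (chr15:98602184-98608581, minus strand) are neighbours, and Wnt1 was lost while Wnt10b was kept.

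The half-site AGGTCA, which retinoid receptors bind in pairs, was searched on both strands of promoter windows from RefSeq in the GRCm38.p6 build, each 250 bases before to 50 bases after the start of a gene. Windows were found for 295 of the 397 members. The half-site was in 12 of 91 gained (13.2%), 9 of 110 lost (8.18%) and 12 of 94 kept genes (12.8%), against 4335 of all 27025 windows (16.04%). Direct repeats of half-sites (AGGTCA itself, its variant AGTTCA, the variant GGGTCA or the variant GGTTCA) spaced by 1, 2 or 5 bases were in 0 member windows, and in 61, 71 and 26 of all windows. To show what such a match looks like in a gene of each class, stretches before the start are given for Cyp2b23 (gained as lower), Fabp7 (lost as higher) and Nr0b1 (kept as lower), 5′ to 3′ on the strand of the gene, with the match in capitals. They lie at chr7:26686559-26686624 (minus strand), chr10:57784722-57784787 (plus) and chrX:86191619-86191684 (plus), and in Fabp7 the match is to the reverse complement.
Cyp2b23: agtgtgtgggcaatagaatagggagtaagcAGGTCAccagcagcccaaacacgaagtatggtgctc
Fabp7: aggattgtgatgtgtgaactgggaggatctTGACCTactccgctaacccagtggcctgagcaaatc
Nr0b1: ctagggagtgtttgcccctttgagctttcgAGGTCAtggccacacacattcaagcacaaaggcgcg
A match is a description of the letters and not a binding site, and a missing match says only that the letters are not in this window.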

How the data were processed

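Poly-A-selected RNA of 24 P19 samples, 1 library each, was sequenced by the authors, who mapped reads to mm9 with Bowtie2 2.1.0, assigned them to genes with featureCounts and ran DESeq2 per the labels. The deposited tables (23) hold the authors' log2 fold changes over WT ethanol at day 2 and unadjusted p-values. These are the authors' own comparisons, used here as the only deposited measurement of each library. One table also holds the authors' standard error, treated as a score in log2 units. Standard errors were worked back from each value and its p-value (normal, two-sided), and over the 144 genes of that table they matched the deposited ones to a relative 4.27e-08. How many genes were tested is not given in the sources used here, so shares are of the 1753 listed genes, and depth is unknown.

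Genes were matched by symbol and classed as gained, lost or kept, with up and down set at an absolute log2 value over 2. Of the members, 350 were found in the mm9 annotation. The classing was tested on simulated data for this comparison, in which 200 of 1753 genes were given values beyond the listing limit and 200 were put in the right class. It does not test the authors' calls, since the other genes carried no noise. The members, the 14 gene lists and the 6 study lists were chosen with earlier results of these data known. Named genes were the retinoid genes in either table, the 6 largest values of each gained or lost direction, the 8 largest differences and the 5 highest and 5 lowest WT values of kept genes, up to 4 gained or lost and 3 kept per list, and the 3 nearest the limit in each table. Some genes that this rule names are not reported here. Other names were chosen after their values were seen. Alternatives were thresholds of 4 and 5, p-value limits of 0.005 and 0.001, removal of genes listed with ethanol, subtraction of the median difference and matching by older symbols. Scripts ran in Python 3.11.15, with tables in pandas 2.3.3, errors from scipy 1.17.1, arrays in numpy 2.4.6 and figures drawn by matplotlib 3.10.9.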

Additional observations from a re-analysis of the deposited data

How the results depend on the processing

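No alternative recomputed a log2 value, so the signs of the log2 values could not change. Counts moved with the limits, and the order of gained and lost counts changed under several of them. As reported, 67 genes were gained and 87 lost as higher, and 56 gained and 65 lost as lower. Without genes listed with ethanol, the order turned for higher genes, with 63 gained and 25 lost, and was level for lower genes, with 46 gained and 46 lost. The ethanol table is of WT cells only, and this removal took out 62 of the genes lost as higher and 4 of those gained. That turn is therefore not read as a difference between the lines. Kept genes then numbered 20 higher and 21 lower, and 1 kept gene differed by more than the combined error. With an absolute log2 threshold of 4, gained and lost genes numbered 53 and 55 higher and 42 and 48 lower, and 33 were kept as lower. With a threshold of 5, they numbered 40 and 48 higher and 29 and 25 lower, with 29 and 18 kept, so that the order of lower genes turned. It turned also with a p-value limit of 0.005 in both tables, with 48 gained and 54 lost as higher, 38 gained and 35 lost as lower, 29 and 36 kept, 48 kept genes listed with ethanol and 0 kept genes beyond the combined error. Requiring 0.001 in the listing table left 3 gained and 9 lost as higher and 7 gained and 6 lost as lower.

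Without genes listed with ethanol, Rarb-/- and WT cells had equal numbers of genes listed as higher in the neuron list (11 and 11), the astrocyte list (6 and 6), the glutamatergic list (2 and 2) and the GABAergic list (2 and 2). The dopaminergic list turned to 5 and 2 and the OPC list had 5 and 0. The neural progenitor list had 0 and 4, the signalling list 0 and 2, and 2 and 1 pluripotency genes were lower. At a threshold of 4, the pluripotency genes turned to 3 and 4, the glutamatergic list had 2 and 2, the astrocyte list 3 and 7, the dopaminergic list 5 and 6 and the neuron list 9 and 15. These alternatives keep fewer genes by construction. The removal of genes listed with ethanol draws on WT cells alone. Its level or turned counts are therefore not read as agreement or difference between the lines.

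No paired analysis was possible because each condition has 1 library. Leaving out a replicate was not an option for the same reason, so the error between cultures is not known. Depth limits cannot be given without read counts.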
